A study of Mus musculus with 2 samples.

Results

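The genes of glutathione, thioredoxin and antioxidant defence were examined in EpCAM-positive epithelial cells from mouse breast tumours with a conditional knockout of Zeb1 (PyMT;Zeb1cKO, called here the Zeb1cKO library) and from PyMT tumours with intact Zeb1. Both groups carry the polyoma middle T oncogene, which drives the tumours, and each group is 1 RNA-seq library. Members were the rows whose deposited gene symbol names a glutathione S-transferase of the alpha, kappa, mu, omega, pi, theta or zeta class, a microsomal glutathione S-transferase, a glutathione peroxidase, a peroxiredoxin, thioredoxin 1 or 2, a thioredoxin reductase or a superoxide dismutase, together with 11 genes chosen by name (Nfe2l2, Keap1, Nqo1, Hmox1, Gclc, Gclm, Gss, Gsr, Cat, Srxn1 and Txnip). This gave 53 genes of the 16902 listed in at least 1 library. A further 14 RefSeq genes match the rule by symbol but are listed in neither library, among them the protein-coding Gpx5, Gpx6, Gsta1, Gstm3, Gstp3 and Prdx6b. The Cre driver, the deleted part of Zeb1, the strain and age of the mice, and any pooling of tumours are not stated in the labels.

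Cells remove reactive oxygen in steps. Superoxide dismutases turn superoxide into hydrogen peroxide, and catalase, the glutathione peroxidases and the peroxiredoxins remove the peroxide. The glutathione peroxidases draw on glutathione, a tripeptide that glutathione reductase recycles, and most peroxiredoxins draw on thioredoxin, which thioredoxin reductases recycle, with NADPH as the electron source of both. Glutathione S-transferases join glutathione to reactive compounds. Many of these genes are activated by Nrf2, the product of Nfe2l2, which binds antioxidant response elements in DNA and is marked for destruction by Keap1.

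The Zeb1cKO library held 21277484 estimated counts and the PyMT library 21580274. With no replicates there is no test between genotypes, genotype cannot be told apart from the animal, the tumour or the handling of each library, and the intervals given with count ratios cover counting error only. Zeb1 itself had 38 counts in the Zeb1cKO library and 96 in the PyMT library. All 10 mammary epithelial markers examined were present in both libraries, with a summed level of 2977 FPKM (fragment counts corrected for the length of the gene and the size of the library) in the Zeb1cKO library and 5780 in the PyMT library. Of these 10, 3 (Krt18, Krt19 and Krt7) were 2-fold lower in the Zeb1cKO library, or 30%, beside 8.78% of all genes compared, and none was 2-fold higher. The log2 ratio was below 0 for 8 of the 10, with a median of -0.75. Epithelial genes thus differed too, and their part in the ratios of the members was not tested. The muscle actin gene Acta1 was at 0.25 FPKM in the Zeb1cKO library and 112 in the PyMT library, so the libraries also differed in genes of other cells. Of 8 neutrophil markers, 6 were compared and 5 were 2-fold lower, with a sum of 17.4 FPKM in the Zeb1cKO library and 281 in the PyMT library, Ngp, Camp and Ly6g being at 0 in the Zeb1cKO library and Mpo in the PyMT library. Lymphocyte markers summed to 3.67 FPKM in the Zeb1cKO library and 2.78 in the PyMT library, and neither of the 2 compared was past 2-fold. In bulk RNA, fewer cells of a type and less RNA per cell cannot be told apart.

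As a pool the antioxidant genes differed little between the libraries, while its make-up differed. The 53 genes summed to 5140 FPKM in the Zeb1cKO library and 5254 in the PyMT library, a ratio of 0.978, and took 0.766% and 0.814% of all FPKM in the Zeb1cKO and PyMT libraries. The 10 most abundant members were the same genes in both, and they held 74.4% of the pool in the Zeb1cKO library and 73.9% in the PyMT library. Gpx4 led in both, at 11.1% of the pool in the Zeb1cKO library and 21.8% in the PyMT library. Without Gpx4 the pool was 4568 FPKM in the Zeb1cKO library and 4109 in the PyMT library, a ratio of 1.11. The peroxiredoxins took 27.9% of the pool in the Zeb1cKO library and 21.7% in the PyMT library. The glutathione peroxidases took 21.2% in the Zeb1cKO library and 30.5% in the PyMT library, so the leading family was not the same in both. This difference in the leading family rests on Gpx4, itself a glutathione peroxidase. Without Gpx4 the peroxiredoxins led in both libraries. The counts of Gpx4 were not whole in the PyMT library, so its level there is uncertain.

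**Figure D1:**
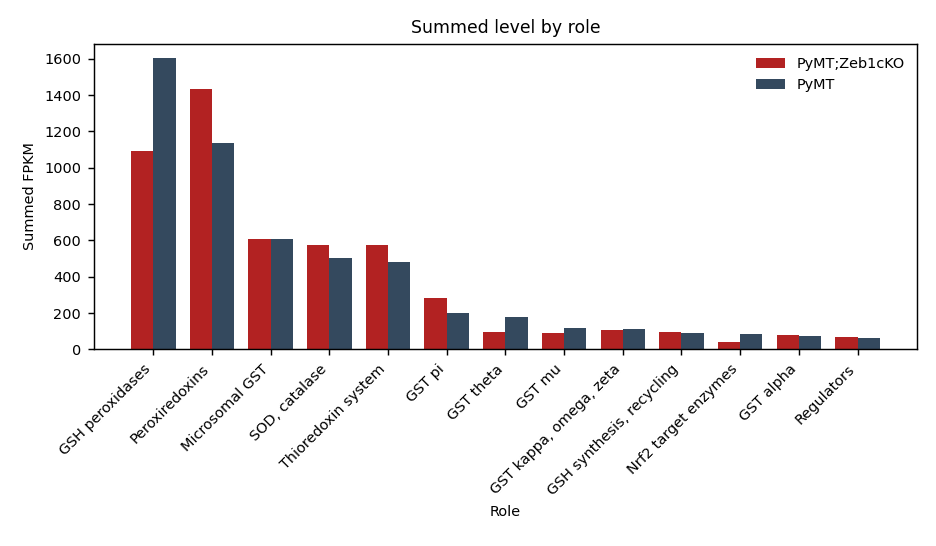
Summed FPKM (vertical axis) of the members of each of 13 roles in the Zeb1cKO library (red, left bar) and the PyMT library (dark, right bar), with 1 library per group and so no error bars. Glutathione peroxidases summed to 1092 FPKM in the Zeb1cKO library and 1603 in the PyMT library, and peroxiredoxins to 1432 and 1137 in the same order of libraries.

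Of the 53 genes, 47 passed the filter, with 1 FPKM or more in either library, and were compared by log2 of (FPKM + 1) in the Zeb1cKO library over the same in the PyMT library. Of these 47, 3 were at least 2-fold higher in the Zeb1cKO library, or 6.38%, beside 10.2% of all 12653 genes compared, and 7 were at least 2-fold lower, or 14.9%, beside 8.78% of all genes. In either direction this came to 10 members, or 21.3%, beside 19.0% of all genes, a share near the background. The median log2 ratio of the 47 was 0.01, against 0.13 for all genes compared. The higher genes were Gstt2, Gstz1 and Prdx3, and the lower ones Sod3, Gsta3, Gstt1, Hmox1, Mgst2, Gstm2 and Gpx3. The other 37 lay within 2-fold, with count ratios from 0.51 for Gpx4 to 1.93 for Cat. With a threshold of 1.5-fold, 7 members were higher and 11 lower, beside 23.7% and 17.3% of all genes (41.0% in either direction). At 3-fold none was higher and 3 were lower, Sod3, Gsta3 and Gstt1, beside 3.27% and 3.53% of all genes (6.8% in either direction). For 21 of the 47 the 95% counting interval of the count ratio lay above 1, for 18 below 1, and for 8 it held 1. The same count was not made over all genes, so it is not read as a trait of these members.

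**Figure D2:**
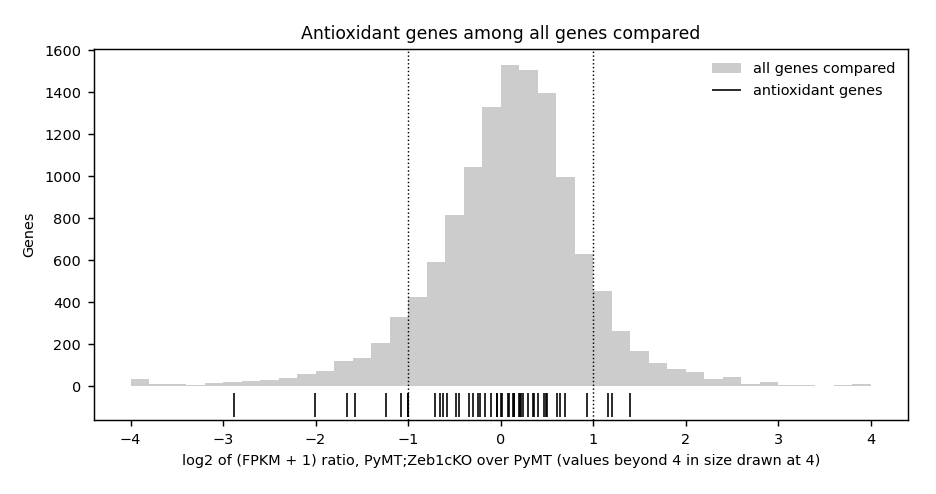
Histogram of the log2 ratio of (FPKM + 1), Zeb1cKO over PyMT, for the 12653 genes compared (grey, vertical axis in genes), with 1 black tick for each of the 47 antioxidant genes and dotted lines at 2-fold. The ticks run from -2.89 (Sod3) to 1.39 (Gstt2), with 7 at or beyond the left line and 3 beyond the right line.

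The regulators of the antioxidant response were close in both libraries. Of 3 enzymes grouped here as classical Nrf2 targets, Hmox1 was 2-fold lower in the Zeb1cKO library while Nqo1 and Srxn1 lay within 2-fold. Members under other roles were not sorted by whether Nrf2 activates them, so these 3 do not stand for all its targets. Nfe2l2, which encodes Nrf2, was at 23.9 FPKM in the Zeb1cKO library and 20.2 in the PyMT library. Keap1, which encodes its inhibitor, was at 44.5 and 40.5 in the Zeb1cKO and PyMT libraries. Both ratios lay close to the median of all genes. Hmox1 (Entrez gene 15368, chromosome 8, 75093618 to 75100593, GRCm38), the inducible enzyme that breaks down haem, was at 16.2 FPKM in the Zeb1cKO library and 50.4 in the PyMT library, and the ratio of its counts was 0.325 (0.294 to 0.36, the 95% counting interval, as in all brackets after a ratio), while 3.59% of all genes compared had a lower log2 ratio. Nqo1, a quinone reductase, was at 13.5 FPKM in the Zeb1cKO library and 22.8 in the PyMT library. Srxn1, which repairs over-oxidised peroxiredoxins, was at 8.89 in the Zeb1cKO library and 11.5 in the PyMT library. The order of these 3 genes by level was the same in both libraries. Hmox1 is also a macrophage gene. Of 9 macrophage markers found, 8 were compared and none was past 2-fold, their summed level being 388 FPKM in the Zeb1cKO library and 480 in the PyMT library with none at 0, and their part in the Hmox1 ratio was not tested.

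Promoter sequence was searched for the core of the antioxidant response element, TGACNNNGC, and of the hypoxia response element, ACGTG, on both strands. The windows run from 250 bases before to 50 after each gene's start, from RefSeq on GRCm38.p6, and 46 of the 53 members have at least 1 window. The 7 without a window, which were not searched, are Gclc, Gsr, Gsta4, Gstt2, Hmox1, Prdx6 and Sod3. The antioxidant core was found for 10 members, or 21.7% of the 46, beside 14.0% of all genes with a window. By window it was in 16.7% of the members' windows and in 12.4% of all 32851 windows. The hypoxia core was likewise found for 10 members, or 21.7%, beside 21.8% of all genes with a window. By window it was in 16.7% of the members' windows and in 19.6% of all windows. The stretches with the antioxidant core are shown because these are the members where the letters that Nrf2 can bind lie near the start. Each is read 5′ to 3′ on the gene's strand, and the capitals mark the match, which reads TGACNNNGC on 1 strand or the other.
Gclm (chr3:122245413-122245441, plus strand): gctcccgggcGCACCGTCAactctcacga
Gsta3 (chr1:21240454-21240482, plus strand): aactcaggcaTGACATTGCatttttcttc
Gstm5 (chr3:107895802-107895830, plus strand): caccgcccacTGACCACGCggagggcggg
Gstm7 (chr3:107931725-107931753, minus strand): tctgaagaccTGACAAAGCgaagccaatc
Mgst1 (chr6:138140461-138140489, plus strand): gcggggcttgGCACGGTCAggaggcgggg
Nfe2l2 (chr2:75704885-75704913, minus strand): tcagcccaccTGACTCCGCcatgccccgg
Prdx1 (chr4:116685456-116685484, plus strand): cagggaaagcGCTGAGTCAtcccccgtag
Sod1 (chr16:90220696-90220724, plus strand): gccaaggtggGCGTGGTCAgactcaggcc
Srxn1 (chr2:152105542-152105570, plus strand): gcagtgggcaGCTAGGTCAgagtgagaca
Txnrd1 (chr10:82859104-82859132, plus strand): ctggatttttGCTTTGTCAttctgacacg
The log2 ratios of these 10 genes ran from -2.01 for Gsta3 to 0.40 for Prdx1, and Gsta3 alone was past 2-fold. Of the 10, 7 were above 0 and 3 below, beside 7337 of all 12653 genes compared that were above 0. In Prdx1 the match overlaps the AP-1 motif TGANTCA, and in Srxn1 the match begins 29 bases after the start. A match is only a description of these letters.

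The promoters of the abundant members past 2-fold, those with at least 50 FPKM in the higher library, are shown for the 3 that have a window, cut to the bases before any annotated exon in GENCODE M21. Gstt1 and Gpx3 were lower and Prdx3 higher in the Zeb1cKO library. The Gstt1 stretch lies inside the annotated gene, before an inner start, and the others lie before the first base of their genes. Neither core lies within these stretches, so all letters are in lower case. The Gstt1 window holds the hypoxia core beginning 26 bases after the start, outside the stretch shown.
Gstt1 (chr10:75797732-75797981, minus strand): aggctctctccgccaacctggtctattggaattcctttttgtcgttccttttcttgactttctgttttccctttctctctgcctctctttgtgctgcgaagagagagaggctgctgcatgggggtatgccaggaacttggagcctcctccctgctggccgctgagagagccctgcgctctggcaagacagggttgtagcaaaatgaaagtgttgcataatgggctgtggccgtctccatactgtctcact
Prdx3 (chr19:60874557-60874788, minus strand): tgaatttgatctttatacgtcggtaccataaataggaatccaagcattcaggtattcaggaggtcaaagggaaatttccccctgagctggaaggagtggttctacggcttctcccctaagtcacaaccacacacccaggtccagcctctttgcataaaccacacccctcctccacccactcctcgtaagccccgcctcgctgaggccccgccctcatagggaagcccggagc
Gpx3 (chr11:54902604-54902771, plus strand): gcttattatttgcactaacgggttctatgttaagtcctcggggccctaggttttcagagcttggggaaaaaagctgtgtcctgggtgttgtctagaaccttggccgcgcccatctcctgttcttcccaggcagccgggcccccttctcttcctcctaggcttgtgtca

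The 4 genes of glutathione synthesis and recycling all lay within 2-fold. Gclc, the catalytic subunit of glutamate-cysteine ligase, which makes the first bond of glutathione, was at 12.3 FPKM in the Zeb1cKO library and 7.52 in the PyMT library, a count ratio of 1.64 (1.47 to 1.84). Its modifier subunit Gclm was at 26.9 FPKM in the Zeb1cKO library and 24.3 in the PyMT library. Glutathione synthetase, Gss, was at 31.8 in the Zeb1cKO library and 27.3 in the PyMT library. The log2 ratios of Gclm (0.14) and Gss (0.21) lay near the median of all genes, 0.13. Gsr, the reductase that recycles it, was at 25.1 FPKM in the Zeb1cKO library and 31.0 in the PyMT library.

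Glutathione peroxidases shared no direction. Gpx4 (Entrez gene 625249, chromosome 10, 80047166 to 80056439), which reduces lipid peroxides in membranes and guards against ferroptosis, was at 572 FPKM in the Zeb1cKO library and 1144 in the PyMT library. Its count ratio was 0.51 (0.498 to 0.522). It lay just inside 2-fold lower on the scale of FPKM + 1, and past it with the 3 other scalings tried (-1.14 with the median ratio, -1.06 as TPM and -1.12 with TMM factors). Gpx1, the cytosolic enzyme, was at 472 FPKM in the Zeb1cKO library and 368 in the PyMT library, a count ratio of 1.31 (1.27 to 1.35). The level of Gpx4 was therefore 1.21 times that of Gpx1 in the Zeb1cKO library and 3.11 times in the PyMT library. Counts of Gpx4 were not whole in the PyMT library, which marks reads that also fit another gene, so its ratio is uncertain. Gpx3 (Entrez gene 14778, chromosome 11, 54902854 to 54910387), the secreted enzyme, was at 40.9 FPKM in the Zeb1cKO library and 83.2 in the PyMT library, a count ratio of 0.498 (0.464 to 0.534), just past 2-fold. Gpx7 and Gpx8, which reside in the endoplasmic reticulum, were low and alike, Gpx7 with 59 counts in the Zeb1cKO library and 65 in the PyMT library, and Gpx8 with 67 counts in the Zeb1cKO library and 61 in the PyMT library. Gpx2, the intestinal form, had 2 counts in the Zeb1cKO library and 3 in the PyMT library.

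Among the peroxiredoxins 1 of 6, the mitochondrial member, was past 2-fold, and it was higher in the Zeb1cKO library. Prdx3 (Entrez gene 11757, chromosome 19, 60864066 to 60874538), which removes peroxide in mitochondria, was at 87.5 FPKM in the Zeb1cKO library and 38.7 in the PyMT library, a count ratio of 2.29 (2.13 to 2.47). Prdx2, a cytosolic form, was at 485 FPKM in the Zeb1cKO library and 299 in the PyMT library. Prdx1, its cytosolic relative, was at 378 in the Zeb1cKO library and 286 in the PyMT library. Red cells hold much Prdx2. Of 11 erythroid markers, 7 were compared and 4 were 2-fold lower in the Zeb1cKO library, with a sum of 1303 FPKM in the Zeb1cKO library and 2717 in the PyMT library and with Hbb-b2 and Ahsp at 0 in the Zeb1cKO library. The 4 were Alas2 and the globin genes Hbb-b1, Hbb-b2 and Hba-a2, near copies of other globins with counts that were not whole, of which Hbb-b1 and Hbb-b2 also differ between mouse strains. The globins Hba-a1, Hbb-bs and Hbb-bt lay within 2-fold. Their part in the Prdx2 ratio was not tested. Prdx6, which acts on phospholipid peroxides, was at 164 FPKM in the Zeb1cKO library and 108 in the PyMT library. Prdx4, the form of the endoplasmic reticulum, was at 80.8 in the Zeb1cKO library and 83.4 in the PyMT library. Prdx5, found in several organelles, was at 236 in the Zeb1cKO library and 322 in the PyMT library. The log2 ratio was above 0 for 4 of the 6, beside 7337 of all 12653 genes compared, and the count ratios ran from 0.755 for Prdx5 to 2.29 for Prdx3.

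The thioredoxin system lay within 2-fold throughout. Txn1, the cytosolic thioredoxin, was at 254 FPKM in the Zeb1cKO library and 221 in the PyMT library. Txn2, its mitochondrial form, was at 109.0 in the Zeb1cKO library and 85.5 in the PyMT library. Txnip, which binds and inhibits thioredoxin, was at 133 FPKM in the Zeb1cKO library and 94.0 in the PyMT library, a count ratio of 1.42 (1.37 to 1.47). None of these 3 was past 2-fold, and the log2 ratio of Txn1 (0.20) lay near the median of all genes. Of the reductases, Txnrd1 of the cytosol was at 57.8 FPKM in the Zeb1cKO library and 54.7 in the PyMT library. Txnrd2 of mitochondria was at 14.1 in the Zeb1cKO library and 16.9 in the PyMT library. Txnrd3, which also acts on glutathione disulphide, was at 7.18 in the Zeb1cKO library and 10.4 in the PyMT library. The mitochondrial peroxiredoxin, thioredoxin, thioredoxin reductase and superoxide dismutase shared no direction. Prdx3 and Txn2 had count ratios of 2.29 and 1.29, and Txnrd2 and Sod2 of 0.842 and 0.857.

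Of the 3 superoxide dismutases and catalase, the extracellular dismutase was past 2-fold, and it had the lowest log2 ratio of the 47 genes. Sod3 (Entrez gene 20657, chromosome 5, 52363804 to 52369738), which is secreted and binds the extracellular matrix, was at 1.86 FPKM in the Zeb1cKO library and 20.1 in the PyMT library, from 74 and 806 counts in the Zeb1cKO and PyMT libraries. Its count ratio was 0.0931 (0.0724 to 0.118), and 0.735% of all genes compared had a lower log2 ratio. Sod1, the copper-zinc enzyme of the cytosol, was at 432 FPKM in the Zeb1cKO library and 392 in the PyMT library. Sod2, the manganese enzyme of mitochondria, was at 29.8 in the Zeb1cKO library and 34.9 in the PyMT library. Catalase, Cat, the peroxide-splitting enzyme of peroxisomes, was at 109.7 FPKM in the Zeb1cKO library and 57.2 in the PyMT library, a count ratio of 1.93 (1.84 to 2.02), just inside 2-fold. The secreted enzymes Sod3 and Gpx3 are also known from stromal and vascular cells. Of 9 fibroblast markers all were compared, 1 being 2-fold higher and none lower, and their sum was 639 FPKM in the Zeb1cKO library and 515 in the PyMT library, with none at 0. Of 8 endothelial markers, 7 were compared and 1 was 2-fold lower, with a sum of 44.4 FPKM in the Zeb1cKO library and 76.1 in the PyMT library and none at 0. Of 7 skeletal muscle markers, 6 were compared and all 6 were 2-fold lower, with a sum of 2.56 FPKM in the Zeb1cKO library and 217 in the PyMT library and none at 0. Of 7 adipocyte markers, 2 were compared and neither was past 2-fold, with a sum of 16.3 FPKM in the Zeb1cKO library and 23.3 in the PyMT library, Adipoq being at 0 in the Zeb1cKO library and Cidec and Lep in the PyMT library. The part of these cells in the ratios of Sod3 and Gpx3 was not tested.

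**Figure D3:**
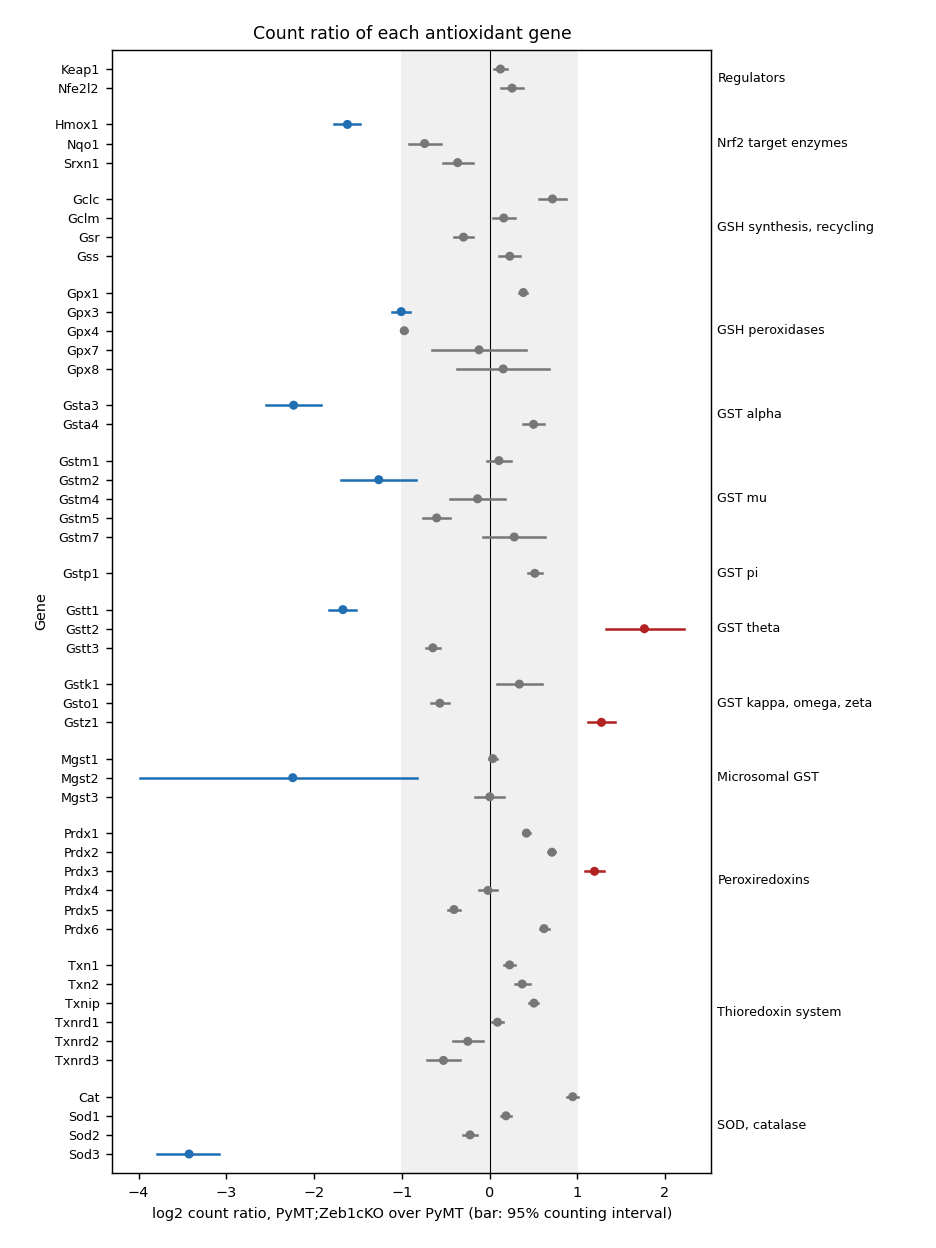
Count ratio of the 47 compared genes, Zeb1cKO over PyMT, on a log2 axis, grouped by role, with bars for the 95% counting interval (1 library per group). Red marks genes at least 2-fold higher and blue genes at least 2-fold lower on the scale of FPKM + 1, and grey shading covers the range within 2-fold. Sod3 lies farthest left and Gstt2 farthest right.

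The theta class of glutathione S-transferases differed within a single gene cluster on chromosome 10. In genome order the cluster holds Gstt3 (75774117 to 75781422), Gstt1 (75783813 to 75798584), Gstt4 (75814943 to 75822566) and Gstt2 (75831842 to 75837419). Gstt1 (Entrez gene 14871), which conjugates small halogenated compounds, was at 24.2 FPKM in the Zeb1cKO library and 78.5 in the PyMT library, a count ratio of 0.314 (0.282 to 0.349). Gstt2 (Entrez gene 14872) was at 7.50 FPKM in the Zeb1cKO library and 2.24 in the PyMT library, with 191 and 57 counts and a count ratio of 3.40 (2.52 to 4.65). Gstt1 and Gstt2, with Gstt4 between them, were past 2-fold in opposite directions. Gstt3 was at 63.0 FPKM in the Zeb1cKO library and 99.5 in the PyMT library, a count ratio of 0.639 (0.606 to 0.674). Gstt4 was not listed in the Zeb1cKO library and had 1 count in the PyMT library. All 4 had whole counts in the tables that list them.

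Alpha, mu and pi transferases gave a mixed picture, with the abundant members within 2-fold. Gsta3 (Entrez gene 14859, chromosome 1, 21240565 to 21265575), of the alpha class, was at 3.95 FPKM in the Zeb1cKO library and 18.9 in the PyMT library, a count ratio of 0.213 (0.17 to 0.264). Gsta4, which detoxifies aldehydes from oxidised lipids, was at 75.3 FPKM in the Zeb1cKO library and 54.3 in the PyMT library, a count ratio of 1.42 (1.3 to 1.54). The 2 expressed alpha genes, on chromosomes 1 and 9, thus lay on opposite sides of 1. The mu class lies in a cluster on chromosome 3. Gstm1 was at 38.7 FPKM in the Zeb1cKO library and 36.4 in the PyMT library. Gstm5 was at 38.4 FPKM in the Zeb1cKO library and 59.7 in the PyMT library. Gstm4 was at 5.13 FPKM in the Zeb1cKO library and 5.89 in the PyMT library. Gstm7 was at 6.09 in the Zeb1cKO library and 5.08 in the PyMT library, so these 4 mu genes lay within 2-fold. Gstm2 (Entrez gene 14863, 107981702 to 107986420) was at 3.32 FPKM in the Zeb1cKO library and 8.11 in the PyMT library, a count ratio of 0.417 (0.309 to 0.557), and its counts were not whole in the PyMT library, so this ratio is uncertain. Gstp1, the main pi-class enzyme, was at 280.0 FPKM in the Zeb1cKO library and 197.7 in the PyMT library, a count ratio of 1.43 (1.36 to 1.51). It shares reads with the near copy Gstp2, at 0.59 FPKM in the Zeb1cKO library and 0.64 in the PyMT library, so the split between them is uncertain. Counts below the filter were 5 in the Zeb1cKO library and 4 in the PyMT library for Gsta2, and 8 and 4 for Gstm6.

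Among the remaining transferases, Gstz1 was higher and Mgst2 lower in the Zeb1cKO library. Gstz1 (Entrez gene 14874, chromosome 12, 87147161 to 87164723), the zeta-class enzyme that acts as an isomerase in tyrosine breakdown, was at 34.3 FPKM in the Zeb1cKO library and 14.3 in the PyMT library. Its count ratio was 2.42 (2.17 to 2.71), with counts that were not whole in either library, so it is uncertain. Gsto1, an omega-class enzyme that can recycle vitamin C, was at 57.1 FPKM in the Zeb1cKO library and 85.9 in the PyMT library. Gstk1, the kappa-class enzyme of mitochondria and peroxisomes, was at 17.5 in the Zeb1cKO library and 14.1 in the PyMT library. Both lay within 2-fold. Mgst1, a membrane enzyme of the endoplasmic reticulum and outer mitochondrial membrane, was second in level in both libraries, at 548 FPKM in the Zeb1cKO library and 545 in the PyMT library, a count ratio of 1.03 (0.997 to 1.06). Mgst3 was at 59.6 FPKM in the Zeb1cKO library and 61.5 in the PyMT library. For Mgst3, as for Mgst1, the counting interval of the count ratio (0.892 to 1.13) held 1. Mgst2 (Entrez gene 211666, chromosome 3, 51636912 to 51682675), which can make leukotriene C, was low, with 5 counts in the Zeb1cKO library and 24 in the PyMT library and a count ratio of 0.211 (0.063 to 0.565). Gsto2 had 3 counts in the Zeb1cKO library and 5 in the PyMT library.

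**Figure D4:**
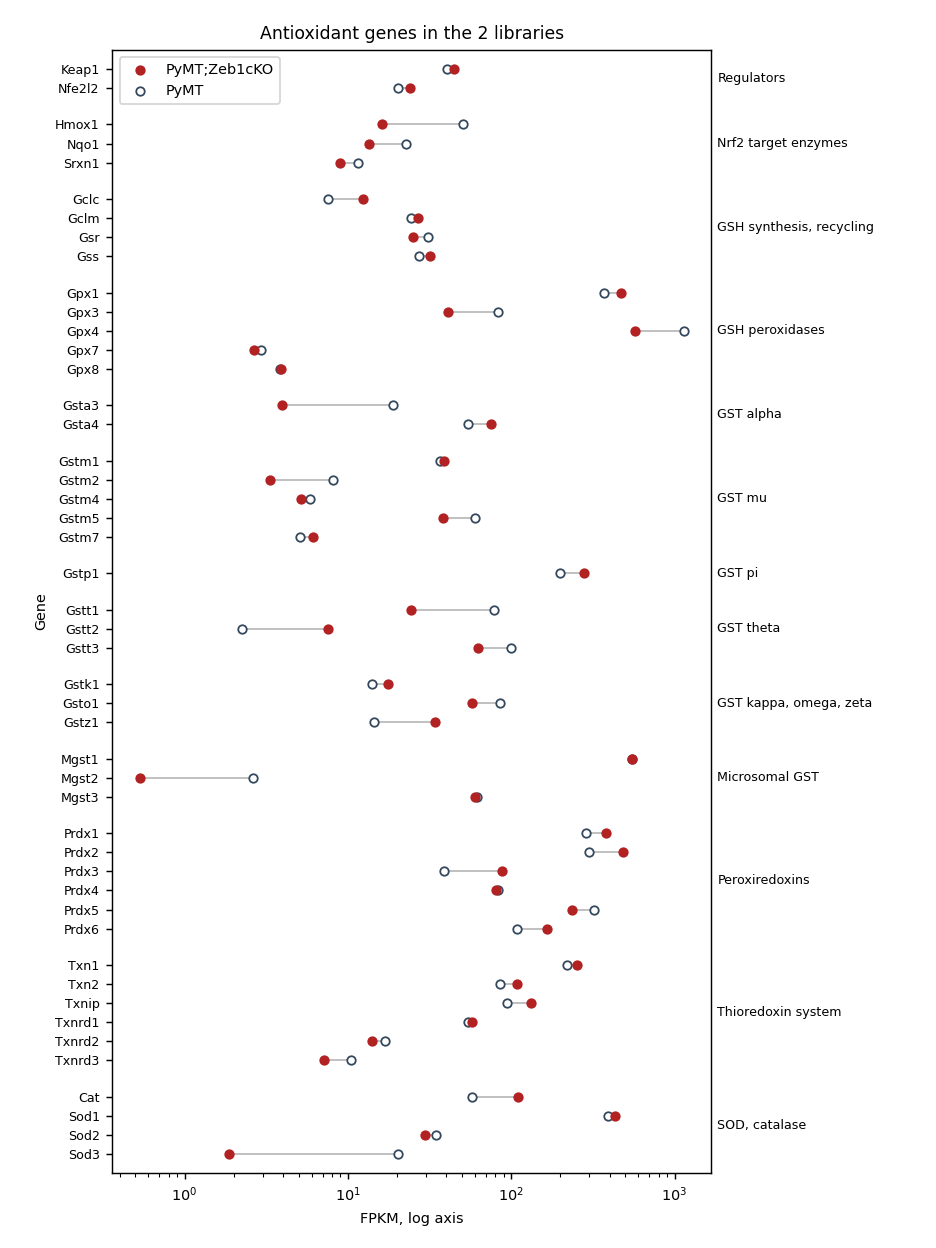
FPKM (log axis) of the 47 compared genes in the Zeb1cKO library (filled red) and the PyMT library (open circles), 1 library each, grouped by role and joined by a grey line for each gene. The longest lines belong to Sod3 (1.86 and 20.1), Gsta3 (3.95 and 18.9) and Mgst2 (0.53 and 2.62), given as Zeb1cKO and then PyMT.

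Related gene lists placed these values in their pathways. They are read beside the shares of all genes given above, 10.2% higher and 8.78% lower. Of 20 other targets of Nrf2, all from outside the members, 15 were compared, none was 2-fold higher and 4 were 2-fold lower. Their median log2 ratio was -0.66. The lowest were Abcc1, an exporter of glutathione conjugates, at 4.50 FPKM in the Zeb1cKO library and 15.8 in the PyMT library, Fth1, the ferritin heavy chain, at 1273 and 3866, and Ephx1, an epoxide hydrolase, at 56.5 and 132, each as Zeb1cKO and then PyMT. The highest were Cbr1, a carbonyl reductase, at 145.8 FPKM in the Zeb1cKO library and 86.6 in the PyMT library, Ptgr1 at 7.91 and 7.26, and Esd at 61.5 and 61.1, in the same order. These lay within 2-fold. Of the 15 compared, 4 had a log2 ratio above 0 and 11 below. Nrf2 targets among the members, under other roles, are not part of this list. The list median was -0.23 without a filter on low values. Of 11 partners and opponents of Nrf2, 10 were compared and 2 were 2-fold lower, with a median of -0.17. These were the small Maf factors Maff, at 4.85 FPKM in the Zeb1cKO library and 67.9 in the PyMT library, and Mafk, at 13.2 in the Zeb1cKO library and 40.7 in the PyMT library, while Mafg was at 8.07 in the Zeb1cKO library and 8.42 in the PyMT library.

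NADPH supply, on which both recycling systems draw, had a median log2 ratio of 0.20 over 10 compared genes, of which 2 were 2-fold higher and none lower. Mthfd1, of the folate cycle, was at 43.6 FPKM in the Zeb1cKO library and 16.8 in the PyMT library, and Nnt, the mitochondrial transhydrogenase, was at 15.4 in the Zeb1cKO library and 6.40 in the PyMT library. G6pdx, the entry enzyme of the pentose phosphate pathway, was at 47.2 FPKM in the Zeb1cKO library and 47.1 in the PyMT library. Taldo1, of the same pathway, was at 609 FPKM in the Zeb1cKO library and 371 in the PyMT library. Tkt, beside it in the pathway, was at 219 in the Zeb1cKO library and 220.0 in the PyMT library, and mitochondrial Idh2 at 183 in the Zeb1cKO library and 197 in the PyMT library. Genes of glutathione breakdown, export and cysteine supply differed in both directions, with 5 of 15 compared genes 2-fold higher and 3 lower. The gamma-glutamyl transferase family genes Ggt5 (6.07 FPKM in the Zeb1cKO library and 1.54 in the PyMT library) and Ggt6 (8.94 in the Zeb1cKO library and 2.60 in the PyMT library) were higher. Oplah, which returns oxoproline to glutamate, was lower, at 16.3 FPKM in the Zeb1cKO library and 46.4 in the PyMT library, as was the amino acid transporter chain Slc3a2, at 119 in the Zeb1cKO library and 270.3 in the PyMT library. The neutral amino acid transporter Slc1a4 was lower too, at 5.29 FPKM in the Zeb1cKO library and 12.6 in the PyMT library.

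Of 18 compared glutaredoxins and thioredoxin-fold proteins, 1 was past 2-fold. This was Glrx, the cytosolic glutaredoxin, lower at 49.0 FPKM in the Zeb1cKO library and 140.9 in the PyMT library. Of 9 methionine sulphoxide reductases and repair proteins, 1 was past 2-fold, the mitochondrial Msrb2, higher at 33.3 FPKM in the Zeb1cKO library and 12.4 in the PyMT library. Of 17 compared selenoproteins and genes of the selenocysteine machinery outside the peroxidases and reductases above, 2 were 2-fold higher and none lower, with a median of 0.43. The gene listed as 2700094K13Rik, a selenoprotein gene, was at 162 FPKM in the Zeb1cKO library and 52.0 in the PyMT library. Sephs2, which makes the selenium donor, was at 101 FPKM in the Zeb1cKO library and 44.4 in the PyMT library. Selm, a selenoprotein of the endoplasmic reticulum, was lowest in ratio, at 15.7 FPKM in the Zeb1cKO library and 27.8 in the PyMT library, within 2-fold. The glutathione peroxidases Gpx1 to Gpx4 and the thioredoxin reductases are selenoproteins too, and they differed in both directions. Of 12 compared sources of superoxide and peroxide, 2 were 2-fold lower and none higher, with a median of -0.25. These were Ero1l, the peroxide-forming oxidase of protein folding, at 10.2 FPKM in the Zeb1cKO library and 146.9 in the PyMT library, and Cyba, a subunit of NADPH oxidases, at 74.6 in the Zeb1cKO library and 169 in the PyMT library. Noxo1, an organiser of an NADPH oxidase, was highest in ratio, at 29.3 FPKM in the Zeb1cKO library and 21.6 in the PyMT library, within 2-fold.

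**Figure D5:**
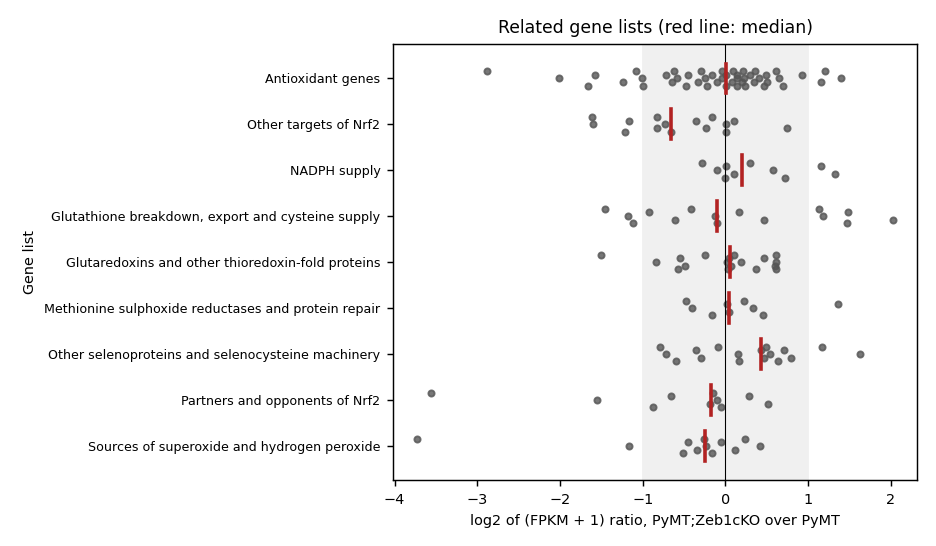
Log2 ratio of (FPKM + 1), Zeb1cKO over PyMT, for each compared gene (points) of the 47 antioxidant genes and of 8 related lists, with the median of each as a red line and grey shading for the range within 2-fold. The medians run from -0.66 (other targets of Nrf2) to 0.43 (other selenoproteins), and the lowest points are Ero1l at -3.73 and Maff at -3.56.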

How the data were processed

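Polyadenylated RNA was sequenced from EpCAM-positive tumour cells of 1 PyMT;Zeb1cKO and 1 PyMT library. Tools listed, without their roles, per the submitters' processing notes are RSEM 1.2.8, DESeq, HISAT2 2.1.0 and Bowtie2 2.2.5, and the build is mm10. The authors deposited, per gene, an estimated count (expected_count, per the file headers) and FPKM, and list genes above 0; an unlisted gene was taken as 0. The members and lists were chosen with earlier results of these data known. Named were all members, with a count ratio for those past 2-fold and, by no set rule, for some within it. Up to 3 highest and 3 lowest genes per related list with an FPKM of at least 5 were picked, and not every one is printed. Of 200 related and marker genes, 194 were found.

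Log2 ratios used FPKM with a pseudocount of 1, which understates differences of low genes. Count ratios used rounded estimated counts divided by library totals, with exact Clopper-Pearson 95% intervals. The functions were tested on simulated data. Protein sequences were not used here. Coordinates and promoters are from RefSeq on GRCm38.p6, the assembly of mm10, matched by Entrez ID. Alternatives were a pseudocount of 0.1, a median ratio, TPM, CPM with TMM factors, other filters and thresholds. Python 3.11.15, numpy 2.4.6, pandas 2.3.3, scipy 1.17.1, matplotlib 3.10.9, R 4.3.3 and edgeR 4.0.16 (TMM factors alone) were used.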

Additional observations from a re-analysis of the deposited data

How the results depend on the processing

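Under the pseudocount of 0.1, the median ratio, TPM and TMM factors, the 3 higher members stayed 2-fold higher, and the 7 lower ones stayed 2-fold lower except Mgst2 with TMM factors (-0.83). None of the 47 log2 ratios that was past 2-fold changed sign. Within 2-fold the sign could change, as for Txnrd1, at 0.08 as reported and -0.06 with the median ratio. Of 188 values under these 4 settings, 61 moved by more than the distance from the middle of the counting interval to its end, in log2. The median of the members was -0.11 with the median ratio, where that of all genes was 0.01. The medians of all 8 related lists also fell by more than 0.1 with the median ratio. NADPH supply went from 0.20 to 0.06 and the other selenoproteins from 0.43 to 0.31. The glutaredoxin list went from 0.06 to -0.08 and the methionine sulphoxide reductase list from 0.04 to -0.09. At 1.5-fold, 7 members were higher and 11 lower, beside 23.7% and 17.3% of all genes. At 3-fold, 0 were higher and 3 lower, beside 3.27% and 3.53%. Leaving out genes with counts that were not whole, which drops Gstz1 and Gstm2, 2 of 43 members were 2-fold higher and 6 lower. The shares of all genes were then 9.58% and 8.64%. Leaving out the alpha, mu and pi transferases, 3 of 39 were higher and 5 lower, beside 10.2% and 8.77%. With an FPKM of at least 5, 3 of 44 were higher and 6 lower, beside 10.7% and 9.03%. The ratio of the summed levels had 3 alternatives, all chosen after seeing the data. It was 0.885 with the median ratio, 1.11 without Gpx4 and 1.05 as a share of counts. No paired analysis was possible because each group has 1 library. Depth limits Mgst2 and the 6 members below the filter, where few counts leave wide intervals.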

Other observations

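Cysteine can be made from methionine by transsulphuration, whose last enzyme is Cth. Cth had 145 counts in the Zeb1cKO library and 9 in the PyMT library, which is a 16.3-fold ratio of counts (8.37 to 36.5, the 95% counting interval), while the step before it, Cbs, had 99 counts in the Zeb1cKO library and 114 in the PyMT library. The cystine transporter gene Slc7a11 was low in both, with an FPKM of 0.03 in the Zeb1cKO library and 0.13 in the PyMT library. The glutathione-degrading enzyme gene Chac1 had 136 counts in the Zeb1cKO library and 286 in the PyMT library, and its relative Chac2 had 125 in the Zeb1cKO library and 41 in the PyMT library, a count ratio of 3.09 (2.16 to 4.51). The first 4 of these genes were named after their values were seen.

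Adult beta-globin genes differ between mouse strains, Hbb-bs and Hbb-bt being those of the s haplotype and Hbb-b1 and Hbb-b2 those of the d haplotype. Hbb-bs was at 351 FPKM in the Zeb1cKO library and 464 in the PyMT library, and Hbb-bt at 64.6 in the Zeb1cKO library and 77.0 in the PyMT library. Hbb-b1 was at 0.73 FPKM in the Zeb1cKO library and 493 in the PyMT library, and Hbb-b2 was not listed in the Zeb1cKO library and at 85.8 in the PyMT library. All 4 had counts that were not whole in at least 1 library. Nnt, in which the C57BL/6J strain is known to carry a deletion, was at 15.4 FPKM in the Zeb1cKO library and 6.40 in the PyMT library. The part of strain background in the antioxidant ratios was not tested, and with 1 library per group it cannot be told apart from genotype.

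The deposited gene length, which follows the mix of transcripts, differed by more than 1% between libraries for 4 of the 52 members listed in both. Gpx8 was at 988 bases in the Zeb1cKO library and 922 in the PyMT library, Gstm4 at 1684 and 1638, Gstp1 at 722 and 733, and Keap1 at 3290 and 3334, each as Zeb1cKO and then PyMT.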
